A study of Mus musculus with 24 samples.

Results

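The antibody-secreting plasma cell and the germinal center B cell are alternative fates of a B cell that has met its antigen. The comparison described here is the one between these fates at day 7 of a splenic response, and it uses 6 of the 24 arrays of the series, 3 per group, chosen by their titles alone. The arrays are Affymetrix GeneChips of the mouse genome, hybridized with amplified total RNA. All mice were unmodified female C57BL/6 animals, 8 to 10 weeks old when they were given NP-CGG, a hapten coupled to a carrier protein, in alum. On day 7 spleen cells were first depleted on magnetic columns with antibodies to the myeloid antigens Gr1 and F4/80, the T cell antigens CD3, CD5 and CD90, the NK cell antigens DX5 and NK1.1, the erythroid antigen TER119, and IgM and IgD, and both populations were then sorted from cells that bind the hapten NIP. The germinal center group was B220+, IgG1+, dull for CD38 and stained by peanut agglutinin. The plasma cell group was B220+, IgG1 low, CD138+ and positive for the λ light chain, so by its gate it was an early, antigen-specific and B220-bearing kind of plasma cell. How far it had switched class was not measured here. The labels do not say whether the 3 replicates came from separate mice or pools, so the p-values measure only the spread between these samples.

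Germinal centers are sites where B cells divide fast, mutate their antibody genes under the enzyme AID and are selected by T cells. The repressor Bcl6 keeps this state, and the regulators Pax5 and Bach2 hold cells in the B cell lineage. Plasma cell formation turns on Irf4 and Blimp-1, encoded by Prdm1, which shut these regulators off. Xbp1, a factor of the unfolded protein response, then enlarges the endoplasmic reticulum (ER) for antibody secretion.

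Values are log2 signals that cannot fall below 2.15, the lowest value in the table. Changes are plasma minus germinal center on that scale. Of 18193 genes with a probe set, 11208 were above the array median on at least 3 of the 24 arrays and were tested with limma over all 8 groups. A gene was called at an adjusted p under 0.05 with a change of at least 1. By this rule 4279 genes (38.2%) were called, 2027 higher in plasma cells (18.1%) and 2252 lower (20.1%), and these shares are the background for each count below. The arrays of the groups did not overlap for 1959 of the higher and 2183 of the lower genes. The median change over all tested genes was -0.05. The spread behind each standard error (SE) comes from all 8 groups. A gene at the lowest value in most of them therefore has a smaller SE than its plasma arrays alone would give. Where a group lay at or below the array medians on all 3 arrays, the change is a lower bound, as it was for 275 of the higher and 106 of the lower genes. In sorted bulk RNA, fewer cells of a type and less RNA per cell cannot be told apart.

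Plasma replicate 2 stood apart from the other plasma arrays. Its correlation with replicates 1 and 3 over tested genes was 0.972 and 0.974, against 0.995 between replicates 1 and 3 and 0.983 to 0.987 among the germinal center arrays. In 148 genes its signal lay more than 3 log2 units above both other plasma arrays, which happened in 0 genes for replicate 1 and in 0 for replicate 3. Of those 148 genes, 12 were called higher, 14 lower and 122 were not called. Correlations between the groups lay between 0.844 and 0.858. All plasma arrays also carried myeloid transcripts, which are described at the end, and their part in the changes below was not tested.

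The regulators separated the groups as sets of arrays that did not overlap. Prdm1, which encodes Blimp-1, measured 11.41, 11.31 and 11.63 in plasma cells and 3.49, 3.49 and 3.14 in germinal center cells, a change of 8.08 ± 0.55 (SE, adjusted p = 3.85e-10). Xbp1 was already high in germinal center cells at 12.22, 12.12 and 11.75, and reached 14.92, 15.06 and 14.97 in plasma cells, 2.95 ± 0.20 higher (adjusted p = 4.80e-10). Irf4 showed the same form, with 12.76, 12.89 and 12.32 against 14.22, 14.34 and 14.22, a change of 1.60 ± 0.14 (adjusted p = 1.14e-08). Thus Prdm1 went from near the lowest signal to a clear one, while Xbp1 and Irf4 rose by 7.75-fold and 3.04-fold from levels that were high in both groups. Bhlha15 (Mist1), a factor of secretory cells, was at 2.15 on every germinal center array and at 12.80, 12.71 and 12.89 in plasma cells, and its mean in each of the other 6 groups was at most 2.35.

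**Figure D1:**
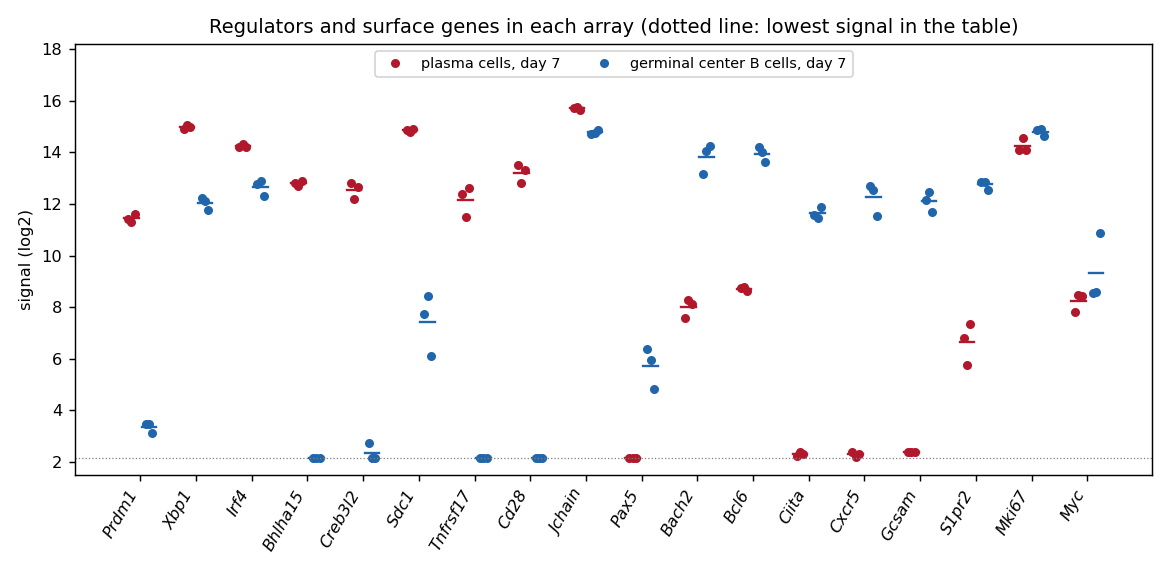
Log2 signal of regulators, surface genes and cycle genes, 1 point per array (red, plasma cells; blue, germinal center B cells; short lines, means of 3; dotted line, the lowest signal of 2.15). The red points are higher for Prdm1, Sdc1 and Cd28, the blue points are higher for Bach2, Bcl6 and Cxcr5, and the Mki67 points of both colours lie above 14.

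Of 12 tested plasma cell transcription factors, 9 rose, 0 fell and 3 were not called, with a median change of 2.07. Creb3l2, an ER-anchored factor of the secretory pathway, rose by 10.22 ± 0.52, from 2.73, 2.15 and 2.15 to 12.81, 12.20 and 12.67. Sub1, a transcription coactivator, rose by 5.22 ± 0.17 and Bhlhe41, a repressor, by 4.60 ± 0.51, the latter from background. Atf6, an ER stress sensor that becomes a transcription factor, rose by 2.30 ± 0.20, and Ell2, an elongation factor that favours the secreted form of antibody mRNA, by 1.58 ± 0.17. Creb3, Nfil3 and Zbtb20 changed by 0.69, 0.20 and -0.08 and were not called.

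All 16 tested genes of the plasma cell surface and effector list were higher in plasma cells, with a median of 5.21, of 17 with a probe set. Genes with a signal in plasma cells alone, such as Cd28, passed the filter through those arrays. CD138 is the syndecan encoded by Sdc1, which was used for the sort, so its values check the gate: 14.86, 14.79 and 14.90 in plasma cells against 7.74, 8.42 and 6.10, a change of 7.43 ± 0.64 (172-fold). Cd28, best known as the costimulatory receptor of T cells, was at 13.52, 12.81 and 13.31 in plasma cells and at the lowest value on all 3 germinal center arrays, a difference of at least 11.06 ± 0.12 (adjusted p = 1.78e-22). Its mean in each of the other 6 B cell groups was at most 2.21. Of the T cell genes, Cd3d, Cd3e and Cd3g were at or below the array median on all plasma arrays, while Cd4 read 6.58, 3.24 and 5.58 there against 2.15 in the germinal center arrays and was called higher, as were Cd8a and Thy1. Tnfrsf17, which encodes BCMA, a receptor for the survival factors BAFF and APRIL, read 12.39, 11.51 and 12.62 in plasma cells and was at the lowest value in the germinal center arrays (at least 10.02 ± 0.18). Epcam, an adhesion molecule, rose by 8.96 ± 0.43, and Capn5, a calpain protease, by 6.33 ± 0.26. Both chains of the IL-6 receptor rose, the signalling chain Il6st by 5.95 ± 0.38 and the ligand-binding chain Il6ra 7.98-fold, from 6.27, 7.68 and 7.86 to 9.60, 10.64 and 10.56. At the low end of this list, Slamf7 rose by 1.42 ± 0.27 and Tnfrsf13b (TACI), also a receptor for BAFF and APRIL, by 1.17 ± 0.15.

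Few antibody genes could be measured, and the constant regions Ighg1, Ighd, Iglc1 and Iglc2 were not analysed here. Jchain, which joins antibody units into polymers, was at 15.72, 15.76 and 15.64 in plasma cells and at 14.73, 14.76 and 14.86 in germinal center cells. Its arrays did not overlap, but the change of 0.92 ± 0.64 had an adjusted p of 0.242 and was not called. The arrays lay close together within each group, so this SE mostly reflects spread within the other groups. The highest value in the table was 16.43. The sort excluded IgM-bearing cells, yet Ighm, the μ heavy chain gene, was present in both groups, at 13.61, 13.53 and 13.56 in plasma cells against 10.91, 11.24 and 11.44, a change of 2.37 ± 0.19. Iglv1, a λ light chain gene, rose by 1.06 ± 0.11, but this rested on its probe set: without probe sets of the less specific types its change was -0.28. Ptprc, which encodes CD45, the protein that carries the B220 epitope, changed by -0.99 ± 0.13, just under the size needed for a call.

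The secretory pathway rose almost as a whole. Over 6 lists that follow an antibody from synthesis to the Golgi, 131 of 174 different tested genes (75.3%) were higher in plasma cells and 2 (1.15%) were lower, with a median of 1.59. The counts by step were 10 of 12 for antibody assembly, 28 of 37 for ER chaperones and folding enzymes, 19 of 26 for stress sensors and ER-associated degradation, 20 of 23 for translocation into the ER, 31 of 40 for N-glycosylation and 33 of 47 for transport from the ER to the Golgi. Each list's count of higher genes stayed within 1.5 times its value in every alternative tried.

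**Figure D2:**
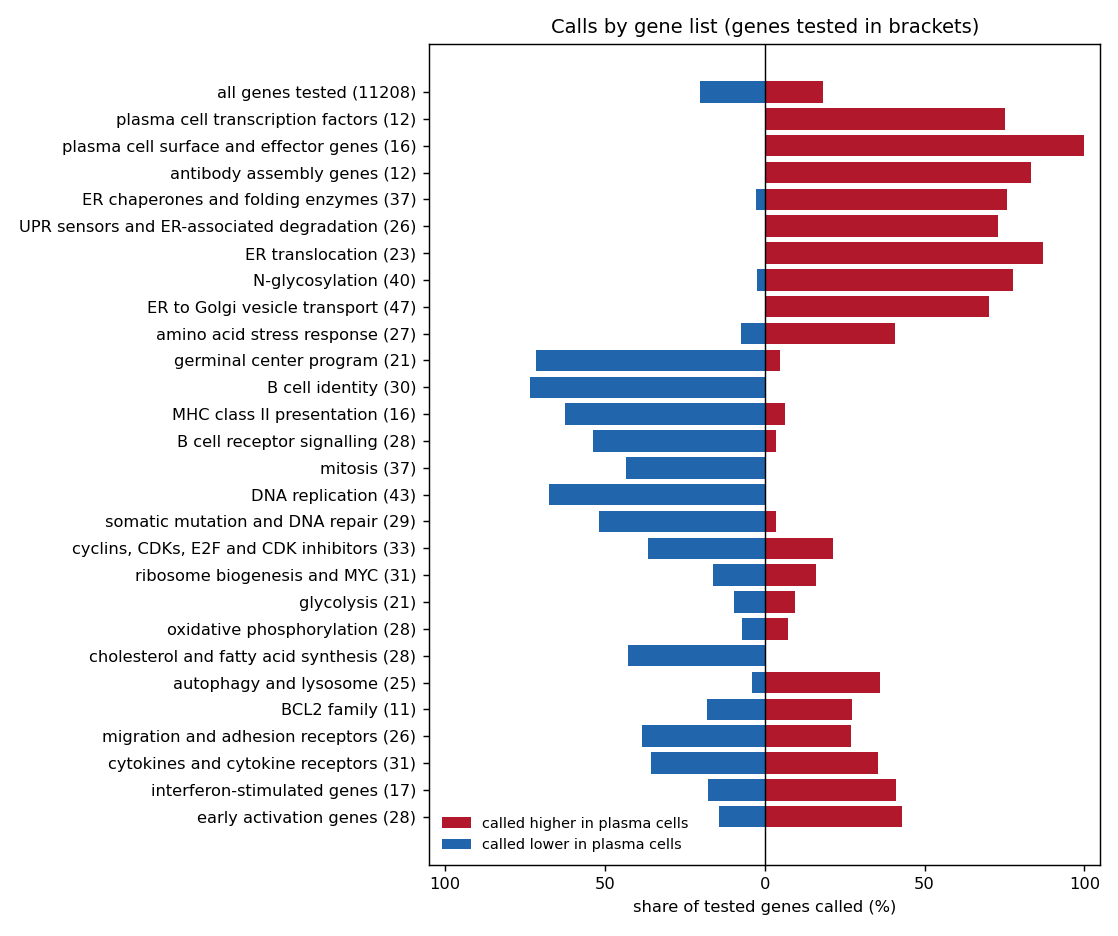
Share of the tested genes of each list that was called higher (red, to the right) or lower (blue, to the left) in plasma cells, in percent, with the number tested in brackets; the top bar gives all 11208 tested genes. The 6 secretory lists lie between 70.2% and 87.0% higher, and the germinal center and B cell identity lists lie at 71.4% and 73.3% lower.

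Among chaperones and folding enzymes, the largest changes were in genes that were nearly silent in germinal center cells. Fkbp11, a prolyl isomerase of the ER, went from 2.84, 2.80 and 2.27 to 13.02, 13.03 and 13.14, a change of 10.43 ± 0.26 (adjusted p = 9.21e-17). Selenom, a selenoprotein of the ER, rose by at least 9.81 ± 0.11 and Pdia4, a disulfide isomerase, by 9.64 ± 1.03. Chaperones with high signals in both groups moved less. Hspa5, which encodes BiP, went from 13.90, 14.00 and 14.01 to 15.09, 15.12 and 15.07 (1.12 ± 0.10), and Hsp90b1, which encodes GRP94, from 12.68, 12.43 and 12.36 to 15.24, 15.02 and 14.94 (2.58 ± 0.18). The lectin chaperones Calr and Canx changed by 0.59 ± 0.10 and 0.55 ± 0.12, below the size for a call though their arrays did not overlap. Cnpy3, a chaperone of Toll-like receptors rather than of antibody, fell by 4.37 ± 0.28 and was the 1 gene of this list called lower. The gene read 9.83, 9.49 and 9.78 in germinal center cells and 4.80, 6.09 and 5.09 in plasma cells.

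Many ER chaperone genes carry the ER stress element, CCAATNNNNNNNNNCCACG, to which Atf6 and NF-Y bind. In RefSeq promoters of 300 bases, from 250 before to 50 after the start (GRCm38.p6), this element was found on either strand in 37 of 27025 genes (0.137%). It was found in 8 of the 32 tested chaperone genes with a promoter, 5 of the 23 called higher and 3 of the 8 not called. Of the stress sensor and degradation genes, 2 of 22 held it. The sites in those called higher are shown here beside changes of very different size. Their shared arrangement is the search pattern itself. Their orientation differed: along the gene in Hspa5, Pdia6 and Dnajc3, opposite in Creld2 and Derl3, and both in Hsp90b1. They began 65 to 212 bases before the start. Capitals mark the CCAAT and CCACG blocks, and each is read 5′ to 3′ on the strand named, with 10 flanking bases.
Hspa5, chr2:34772015-34772053, plus strand: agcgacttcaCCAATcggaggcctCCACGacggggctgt
Hsp90b1, chr10:86705523-86705561, plus strand: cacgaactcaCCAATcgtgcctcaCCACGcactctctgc
Hsp90b1, chr10:86705628-86705666, minus strand: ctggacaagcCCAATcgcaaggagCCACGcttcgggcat
Pdia6, chr12:17266481-17266519, plus strand: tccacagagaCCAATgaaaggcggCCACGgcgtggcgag
Dnajc3, chr14:118937817-118937855, plus strand: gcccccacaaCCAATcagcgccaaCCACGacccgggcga
Creld2, chr15:88819510-88819548, minus strand: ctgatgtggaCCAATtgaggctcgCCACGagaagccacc
Derl3, chr10:75893232-75893270, minus strand: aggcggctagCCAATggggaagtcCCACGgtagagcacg
The genes with these sites rose by 1.12 ± 0.10 (Hspa5), 1.53 ± 0.21 (Dnajc3), 2.58 ± 0.18 (Hsp90b1), 2.63 ± 0.13 (Pdia6), 3.60 ± 0.18 (Creld2) and 4.10 ± 0.34 (Derl3). The sites of 2 genes that were not called are shown beside them.
Calr, chr8:84847065-84847103, plus strand: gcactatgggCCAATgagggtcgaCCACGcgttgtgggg
Canx, chr11:50325790-50325828, minus strand: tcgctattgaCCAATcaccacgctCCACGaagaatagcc
Ero1b and Syvn1, also not called, held the element too, so it was present in genes with and without a call.

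The 3 sensors of the unfolded protein response differed in their changes. Ern1, which encodes IRE1α, the enzyme that splices Xbp1 mRNA, went from 3.97, 2.15 and 2.64 to 12.03, 11.36 and 11.92 (8.85 ± 0.57, adjusted p = 1.56e-10). Atf6 rose by 2.30 as given above. Eif2ak3, which encodes PERK, was at 12.29, 12.19 and 12.27 in plasma cells and 12.13, 12.11 and 12.75 in germinal center cells, overlapping values that differed by -0.08 ± 0.21. Of the genes known to follow PERK signalling, Atf4 (0.68 ± 0.15) and Ddit3 (0.91 ± 0.16) were not called, and Ppp1r15a was called higher by 1.51. Ppp1r15a lost its call without plasma replicate 2 (1.42). The stress genes Chac1 and Nupr1, given below, were also higher. Edem2, which marks misfolded glycoproteins for removal, rose by 5.55 ± 0.42, and Derl3, a channel component of that removal, went from 9.22, 8.58 and 8.58 to 12.86, 12.77 and 13.04.

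Translocation, glycosylation and transport each had a few members with large changes over a broad shift near their medians of 1.55, 1.63 and 1.32. Srprb, a subunit of the receptor for the signal recognition particle, rose by 4.07 ± 0.22, Tram2, a translocon partner, by 3.40 ± 0.15, and Sec61a1, the pore itself, by 2.06 ± 0.13. Alg2, a mannosyltransferase of the lipid-linked sugar, rose by 5.60 ± 0.28, from 7.67, 7.63 and 6.89 to 13.14, 12.68 and 13.18. Tusc3 was the 1 glycosylation gene that fell, by 2.07 ± 0.22. It encodes a subunit of the oligosaccharyltransferase that is alternative to Magt1, and Magt1 rose by 1.63. Of the COPII coat, Sec24d rose by 8.92 ± 0.43, from 3.95, 3.60 and 3.66 to 12.59, 12.65 and 12.72, whereas its paralogs Sec24a, Sec24b and Sec24c changed by 1.11, -0.62 and 0.70. Kdelr3, a receptor that returns escaped ER proteins, rose by 6.71 ± 0.24, and Kdelr1 and Kdelr2 rose by 2.40 and 1.72. Mcfd2 and Lman1, which form a cargo receptor complex, rose by 4.43 ± 0.21 and 2.88 ± 0.16.

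The amino acid stress genes were mixed, with 11 of 27 higher, 2 lower and a median of 0.77. Chac1, which degrades glutathione, rose by 8.04 ± 0.56 and Nupr1, a stress-induced chromatin protein, by at least 3.71 ± 0.28. Asns, which makes asparagine, changed by 0.70 ± 0.59 and was not called. Psat1 in serine synthesis (-1.02 ± 0.27) and the mitochondrial folate enzyme Mthfd2 (-1.05 ± 0.20) fell slightly past the size needed for a call. Psat1 lost its call without plasma replicate 1 or 3 or germinal center replicate 2, with changes of -0.95 to -0.98, and Mthfd2 without germinal center replicate 1 (-0.93).

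**Figure D3:**
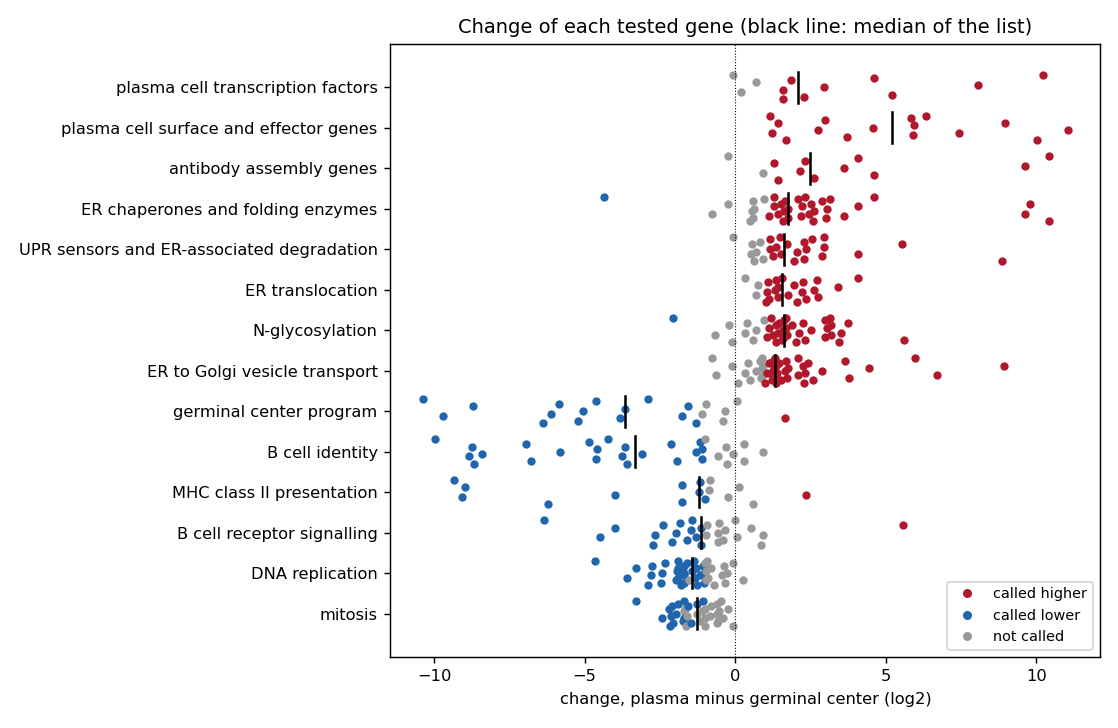
Change of each tested gene in 14 lists (plasma minus germinal center, log2; red, called higher; blue, called lower; grey, not called; black lines, list medians). Most points of the secretory lists lie to the right of 1, the germinal center and B cell identity lists reach down to about -10, and no mitosis gene lies above 0.

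The germinal center program went down. Of 21 tested genes, 15 fell, 1 rose and 5 were not called, with a median of -3.67. Bcl6 was at 14.19, 14.00 and 13.62 in germinal center cells and at 8.73, 8.79 and 8.64 in plasma cells, a fall of 5.22 ± 0.18 (adjusted p = 1.12e-14) that left a signal well above the floor. Rassf6, a Ras association domain protein, fell by 10.39 ± 0.64, from 13.21, 13.24 and 13.25 to 3.14, 2.56 and 2.84. Gcsam, a germinal center adaptor, fell by at least 9.71 ± 1.28 and Rgs13, which dampens chemokine receptor signals, by 8.73 ± 0.89. S1pr2, the receptor that confines cells to the germinal center, fell by 6.11 ± 0.91. Fas fell by only 1.78 ± 0.53, and Mef2c changed by 0.06 ± 0.15 with overlapping arrays. Cd55, a complement regulator counted in this list, was called higher by 1.65 ± 0.33, but its other 2 probe sets changed the other way.

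B cell identity genes fell as strongly, 22 of 30 with 0 higher and a median of -3.34. Pax5 was at 2.15 on all plasma arrays and at 6.39, 5.97 and 4.84 in germinal center cells, a fall of at least 3.58 ± 0.50 (adjusted p = 6.24e-06) that is limited by the modest signal of its probe set. Bach2, the repressor that holds Prdm1 off, fell by 5.82 ± 0.36, from 13.18, 14.04 and 14.23 to 7.58, 8.27 and 8.13. Spib, an ETS factor, fell by 6.80 ± 0.19, Id3, an inhibitor of E proteins, by 6.95 ± 0.71 and Ebf1 by 3.10 ± 0.24. Of the coreceptors, Cd22 fell from 13.81, 13.66 and 13.72 to 3.81, 3.76 and 3.72 (-9.97 ± 0.17), and Cd72 and Cr2 fell by 8.85 ± 0.18 and 8.73 ± 0.29. The signalling chains of the antigen receptor stayed high: Cd79b was at 14.94, 14.75 and 14.90 against 14.92, 14.91 and 15.02 (-0.09 ± 0.09), and Cd79a fell by 1.09 ± 0.11. Ms4a1, which encodes CD20, stood between these, falling by 3.65 ± 0.12 to a plasma signal that was still 11.02, 11.06 and 11.13.

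Antigen presentation was split between its regulator and its products. Ciita, the master activator of MHC class II genes, fell from 11.59, 11.45 and 11.88 to 2.25, 2.38 and 2.30, a fall of at least 9.33 ± 0.20. The class II chains it controls remained high: H2-Ab1 fell by 1.18 ± 0.10 to 13.72, 14.03 and 13.74, H2-Aa changed by -0.88 ± 0.10 and the invariant chain Cd74 by -0.24 ± 0.08. H2-Oa and H2-Ob, which encode the class II molecule that inhibits peptide exchange, both fell, the first by 6.23 ± 0.31 and the second from 13.38, 13.26 and 13.62 to 9.33, 9.63 and 9.29. Marchf1, a ligase that removes class II and CD86 from the surface, fell by 8.97 ± 0.43, and Cd86 itself by 9.08 ± 0.28. The related costimulator Cd80 rose by 2.36 ± 0.47 from background. In all, 10 of 16 genes of this list fell and 1 rose, with a median of -1.20.

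Of 28 genes of antigen receptor signalling, 15 fell, 1 rose and 12 were not called, with a median of -1.14. Pik3ap1 (BCAP), an adaptor for PI3K, fell by 6.36 ± 0.30, Sh3bp5, which binds Btk, by 4.50 ± 0.17, and Ptpn6, the phosphatase SHP-1, from 13.43, 13.60 and 13.51 to 9.39, 9.65 and 9.50. The kinases Btk and Syk changed by -0.98 ± 0.11 and -0.52 ± 0.15 and were not called. Vav3, a guanine nucleotide exchange factor, rose by 5.56 ± 0.36, from 3.96, 2.66 and 4.17 to 9.81, 8.19 and 9.48, while its paralog Vav2 fell by 1.44 and Vav1 changed by -0.56.

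Both populations carried the transcripts of dividing cells, at lower levels in plasma cells. Over the 37 tested mitosis genes the median level was 11.35 in plasma cells, 12.50 in day 7 germinal center cells and 4.01 in follicular B cells, and over 43 DNA replication genes it was 11.24, 12.24 and 9.72. Mki67, which encodes Ki-67, was at 14.08, 14.54 and 14.11 against 14.88, 14.90 and 14.63, a difference of -0.56 ± 0.50 that was not called (adjusted p = 0.371), while its mean in follicular cells was 7.24. Its plasma and germinal center arrays did not overlap. Taking each gene of both lists once, 45 of 80 were lower in plasma cells (56.3%) and 0 were higher, with a median of -1.39. For mitosis the count was 16 of 37, and it depended on the spread: it ranged from 7 to 25 over the alternatives, with 7 when plasma replicate 1 or 3 or germinal center replicate 1 was left out and 8 without germinal center replicate 2. With only the 6 arrays compared, 22 mitosis genes were lower. The median stayed between -1.18 and -1.61. For replication the count was 29 of 43 and ranged from 26 to 33.

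Kif23, a kinesin of cytokinesis, fell by 3.29 ± 0.45, from 12.64, 12.67 and 12.54 to 8.81, 10.08 and 9.09. Plasma replicate 2 was the highest of the plasma arrays for this gene and also for Mki67, Cenpe and Mcm10. Top2a, the topoisomerase of dividing cells, fell by 1.69 ± 0.57, whereas Cdk1 and Birc5 changed by -0.55 ± 0.67 and -0.59 ± 0.48 and were not called. In replication, Chaf1b, a histone chaperone behind the fork, fell by 4.66 ± 0.67, Pola1, the catalytic subunit of the priming polymerase, by 3.60 ± 0.88 and Mcm10, a helicase cofactor, by 3.28 ± 0.81. Rrm2, a subunit of ribonucleotide reductase, was at 14.14, 14.50 and 14.17 against 14.29, 14.37 and 14.36 (-0.07 ± 0.37), with arrays that overlapped.

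E2F sites were searched as TTTCCCGC, TTTGGCGC, TTTCGCGC and TTTGCCGC on both strands, with overlapping sites counted for each strand. At least 1 was present in 704 of 27025 genes with a RefSeq promoter (2.61%), in 13 of the 26 replication genes called lower that had a promoter and in 2 of the 10 not called. An upstream site from each of several helicase, origin and polymerase genes is shown as an example. Mcm5 and Mcm6 held more than the site shown, and Gins3, Dnmt1, Uhrf1 and the uncalled Cdc6 also held upstream sites. Capitals mark the site.
Mcm5, chr8:75109346-75109373, plus strand: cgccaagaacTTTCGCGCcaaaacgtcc
Mcm6, chr1:128359735-128359762, minus strand: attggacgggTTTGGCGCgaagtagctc
Mcm7, chr5:138172031-138172058, plus strand: ggacaccctgTTTCCCGCggttcgaaat
Orc1, chr4:108579417-108579444, minus strand: ggagaaaactTTTCGCGCcactaaccga
Pola1, chrX:93632276-93632303, plus strand: cgggagtgcaTTTGGCGCcctgtgatga
These genes fell by 1.93 ± 0.47 (Mcm5), 1.36 ± 0.28 (Mcm6), 1.89 ± 0.35 (Mcm7), 2.91 ± 0.79 (Orc1) and 3.60 ± 0.88 (Pola1). The shorter CHR element TTTGAA, known from promoters of mitosis genes, was in 10 of 14 mitosis genes called lower and in 15 of 17 not called, against 20.2% of all genes with a promoter.

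The list of cyclins, CDKs, E2F factors and CDK inhibitors held calls in both directions, while the E2F factors given here fell. E2f1 fell by 3.57 ± 0.58, from 10.83, 10.83 and 10.58 to 6.74, 7.52 and 7.28, and E2f5, E2f6 and E2f7 also fell, with changes of -5.61 ± 0.42, -5.46 ± 0.44 and -4.07 ± 1.01. The D-type cyclins, which start the cycle with Cdk4 and Cdk6, moved in opposite directions: Ccnd2 went from 2.63, 4.28 and 3.10 to 13.88, 13.45 and 13.70 (10.34 ± 0.31), and Ccnd3 from 12.66, 12.24 and 11.58 to 8.64, 9.46 and 8.52 (-3.29 ± 0.33). Cdkn1a, the inhibitor p21, rose by 6.09 ± 0.73 and Cdkn1b, p27, by 1.11 ± 0.23, and Cdk6 fell by 2.48 ± 0.44. In this list 7 of 33 genes rose (21.2%) and 12 fell (36.4%), against 18.1% and 20.1% of all tested genes. Myc was at 7.81, 8.49 and 8.43 against 8.56, 8.58 and 10.87, with germinal center replicate 3 above the other 5 arrays, and the difference of -1.09 ± 0.63 was not called (adjusted p = 0.154). Its antagonists Mxd1 and Mxi1 rose by 3.23 ± 0.27 and 3.23 ± 0.22.

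Repair and mutation genes were mostly lower, 15 of 29 with 1 higher and a median of -1.35. H2ax, the histone marked at DNA breaks, fell by 4.09 ± 0.48, Brca2 by 2.54 ± 0.60, and Msh6 and Ung, which process the lesions left by AID, by 2.16 ± 0.16 and 2.01 ± 0.26. Xrcc4, of non-homologous end joining, was the 1 that rose, by 1.34 ± 0.32, and it fell under the size for a call without germinal center replicate 1 (0.89).

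Metabolic lists showed fewer calls than the background of 38.2%, with the exception of lipid synthesis. In glycolysis 2 of 21 genes rose and 2 fell, with a median of -0.23, and in oxidative phosphorylation 2 of 28 rose and 2 fell, with a median of -0.03. In cholesterol and fatty acid synthesis 12 of 28 fell and 0 rose, with a median of -0.80. Acaca, the carboxylase that commits acetyl-CoA to fatty acids, fell by 2.36 ± 0.32 and Scd1, a desaturase, by 1.95 ± 0.15. Ribosome biogenesis and MYC genes showed 5 higher and 5 lower of 31, with a median of -0.43.

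Autophagy and lysosome genes showed 9 of 25 higher and 1 lower. Wipi1, which binds the forming autophagosome, rose from the lowest value on every germinal center array to 10.01, 10.30 and 10.45 (at least 8.10 ± 0.09), and Gabarapl1, of the ATG8 family, rose by 6.10 ± 0.43. Tfeb, a transcription factor of lysosome genes, fell by 4.52 ± 0.37. In the BCL2 family, Bcl2l2 (Bcl-w) and Bcl2l1 (Bcl-x) rose by 3.42 ± 0.39 and 1.62 ± 0.39, as did the death promoter Pmaip1 (Noxa), by 1.66 ± 0.35. Bcl2 was at 3.57, 3.57 and 3.03 against 5.73, 5.36 and 5.12, and Mcl1, a survival factor of plasma cells, was at 14.20, 14.06 and 14.15 against 14.19, 14.19 and 14.05, values that overlapped. The call of Bcl2 (-2.01 ± 0.31) was lost when its probe sets were averaged (-0.45), as was that of Bcl2l2 (0.86).

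Receptors that place cells in the tissue moved in both directions. Cxcr5, which draws B cells to follicles, fell from 12.71, 12.56 and 11.53 to 2.38, 2.19 and 2.32, a fall of at least 9.97 ± 0.26. Cxcr3, a receptor for inflammatory chemokines, rose from 2.79, 2.40 and 2.65 to 10.83, 10.39 and 10.95 (8.11 ± 0.25), and Selplg, a selectin ligand, by 6.45 ± 0.68. Cxcr4, which binds the bone marrow chemokine CXCL12, was high in both, at 14.55, 14.35 and 14.45 against 14.48, 14.17 and 14.19 (0.17 ± 0.14), with arrays that overlapped. The integrin chains Itga4 and Itgb7 rose by 2.71 ± 0.14 and 3.22 ± 0.46. S1pr3 fell by at least 7.93 ± 0.31, while S1pr1, the receptor for exit into blood, was at 6.02, 3.81 and 5.50 against 4.96, 6.46 and 6.65, values that overlapped. In all, 7 of 26 genes of this list rose and 10 fell.

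Of cytokines and their receptors, 11 of 31 rose and 11 fell. Il10, an inhibitory cytokine, was at 8.31, 8.01 and 8.51 in plasma cells and at or near the lowest value in germinal center cells (at least 6.10 ± 0.34), and Ebi3, a subunit of IL-27 and IL-35, rose by 4.52 ± 0.54. Ltb, a lymphotoxin chain that organizes follicles, fell from 11.19, 11.43 and 11.16 to 3.72, 2.53 and 2.31 (-8.41 ± 0.41), and Lta, its partner, by at least 8.88 ± 0.47. Among the receptors that fell were those for IL-21 (Il21r, -5.72 ± 0.32) and IL-4 (Il4ra, -3.97 ± 0.30), and among those that rose were those for IL-5 (Il5ra, 4.39 ± 0.45) and IL-6 (Il6ra, given above). Interferon-stimulated genes gave 7 higher and 3 lower of 17, with Mx1 up by 6.06 ± 0.42, Bst2 up by 5.18 ± 0.22 and Oas1a down by 3.74 ± 0.33. Early activation genes, which also respond to handling, gave 12 higher and 4 lower of 28, with Jun up by 4.10 ± 0.62 and Dusp2 down by 4.99 ± 0.38.

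Of the 15 largest rises by the rule used, 8 had germinal center cells at background. Besides genes already given, they held Oosp1 (at least 11.32 ± 0.70), Upb1, an enzyme of pyrimidine breakdown (at least 10.07 ± 0.32), the metallothionein Mt1 (at least 10.01 ± 0.41), Hepacam2 (9.70 ± 0.26), Pgam2, the muscle phosphoglycerate mutase (at least 9.70 ± 0.09), Pml, of nuclear bodies (9.50 ± 0.48), and Tmem154 (9.40 ± 0.33). They differed in how far they were seen elsewhere in the series. The highest mean among the other 6 groups was 2.15 for Pgam2, 2.24 for Selenom and 3.13 for Mt1, but 13.12 for Pml, 12.87 for Ccnd2 and 11.99 for Tmem154. It was also 11.57 for Pdia4, 10.22 for Upb1, 10.21 for Hepacam2 and 9.70 for Oosp1, below their plasma means. Pml, Ccnd2, Tmem154, Pdia4, Upb1, Hepacam2 and Oosp1 thus had a clear signal in another group and were low in day 7 germinal center cells.

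The 15 largest falls held Srpk3, a splicing factor kinase (-10.48 ± 0.36), the lipopeptide receptor Tlr1 (-9.30 ± 0.13) and, as lower bounds, Emid1 (-9.81 ± 0.18), Slamf1 (-9.39 ± 0.39) and Havcr1, which encodes TIM-1 (-8.90 ± 0.25). Tlr1 went from 11.97, 11.78 and 11.93 to 2.65, 2.66 and 2.46. Hbb-bh1, an embryonic globin gene, was at 11.13, 11.23 and 11.75 in germinal center cells and at the floor in plasma cells (-9.21 ± 1.18, a lower bound in size), and its highest mean in the other 6 groups was 9.63. Plasma cells had a lower mean than each of the other 7 groups for all of these 15 genes except Rassf6, Gcsam and Hbb-bh1. The lowest mean in the other 6 groups was highest for Cxcr5, Cd22, Ciita, Tlr1 and Cd72, where it lay between 10.10 and 12.25.

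Myeloid transcripts were present in every plasma array. Of 55 markers of macrophages, neutrophils, monocytes, dendritic cells, eosinophils, basophils and mast cells with a probe set, 34 passed the filter on dim genes, some of them, such as Prtn3, Fcgr3 and Gata2, on no germinal center array, so a count over those that passed is partly set by the filter. With every gene tested, 26 of the 55 (47.3%) were higher in plasma cells, 2 were lower and 27 were not called, against 11.0% of all genes called higher in that fit. Some of the 26, such as Tyrobp, Mpeg1, Cd68 and Spic, were higher still in another B cell group. By the deposited descriptions the cells had been depleted with antibodies to Gr1 and F4/80 before the sort. Summed over 13 neutrophil markers, the linear signal was 32990 to 54230 in plasma arrays and 80 to 1314 in germinal center arrays. The corresponding ranges were 20360 to 25130 against 4492 to 7644 for 17 monocyte and dendritic cell markers, 2862 to 3373 against 313 to 540 for 15 macrophage markers and 5436 to 6457 against 46 to 64 for 10 eosinophil, basophil and mast cell markers. None of these ranges overlapped. In the last list the single gene Prg2 made up 82.5% to 94.2% of the plasma sums, and the other genes summed to 376 to 954 in plasma arrays and 40.1 to 49.6 in germinal center arrays. In the plasma arrays S100a8 and S100a9 made up most of the neutrophil sums, and C1qb and Cd68 most of the macrophage sums. Lyz2 and Ifitm3 together made up most of the plasma sums of monocyte and dendritic cell markers. Ifitm3 read 12.69 to 13.03 there, but it also had a signal of 8.08 to 8.29 in day 7 germinal center arrays. In day 7 memory cells it read 8.88 to 9.42. The sum without Ifitm3 was not taken. Single arrays of other groups came nearer: the neutrophil sum reached 21020 in day 7 memory cells and 21480 in day 40 germinal center cells, and the macrophage sum reached 2856 in day 7 memory cells, close to the lowest plasma array. For monocyte and dendritic cell markers whole groups came nearer. Their sums were 11440 to 16000 in marginal zone, 11960 to 16360 in stimulated follicular, 13130 to 14450 in day 7 memory and 9988 to 10440 in follicular cells. The eosinophil, basophil and mast cell sum was at most 160 outside the plasma arrays.

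**Figure D4:**
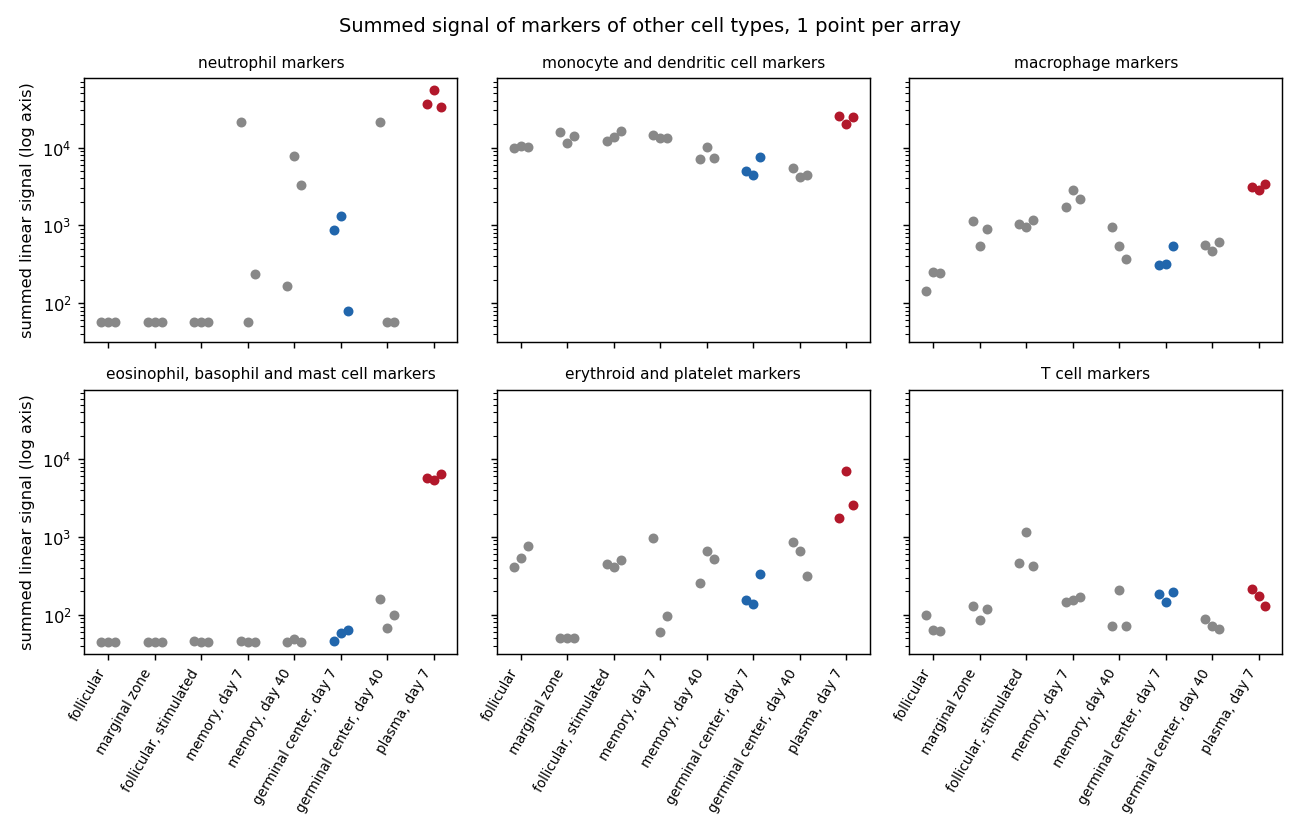
Summed linear signal (log axis) of the markers of 6 other cell types, 1 point per array, in all 8 groups of the series (red, plasma cells; blue, day 7 germinal center B cells; grey, the other groups). The plasma arrays lie above all other arrays for neutrophil, monocyte and dendritic cell, macrophage, and eosinophil, basophil and mast cell markers, but not for T cell markers.

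The neutrophil markers differed in how even they were across the plasma arrays. S100a9, which encodes a calcium-binding protein abundant in neutrophils and monocytes, was at 14.23, 14.31 and 14.07 in plasma cells and at 9.38, 10.03 and 2.15 in germinal center cells, a change of 7.02 ± 2.80 (adjusted p = 0.0399). Ngp, a late granule protein, was at 11.27, 10.56 and 10.87 against 2.26, 2.15 and 2.15 (at least 8.71 ± 1.61), and Camp, Lcn2 and S100a8 also spanned less than 1 log2 unit over the plasma arrays. The 3 genes of early, azurophil granules in the list spanned far more. Mpo, the peroxidase, read 7.81, 13.83 and 10.76, Elane 4.31, 11.00 and 7.56, and Prtn3 3.34, 10.75 and 7.65, each highest in replicate 2 and lowest in replicate 1, with germinal center values of 2.15 except for 4.73 for Mpo in replicate 3. Ltf, of later granules, and Mmp9 had the same order over a smaller span, at 5.84, 6.96 and 6.55 and at 3.16, 4.44 and 3.59. Ctsg and Ms4a3, chosen after their values were seen, had this order too, at 4.45, 11.86 and 7.88 and at 4.73, 9.92 and 6.68. Without plasma replicate 2 the change was 6.28 for Mpo, 3.79 for Elane and 3.35 for Prtn3 in place of 7.79, 5.47 and 5.10, where those of Elane and Prtn3 are lower bounds, and all 3 were still called. S100a9 lost its call without germinal center replicate 3 (4.50, adjusted p = 0.214) and without each plasma array in turn, where the change stayed at 6.96 to 7.08 and the adjusted p rose to 0.0777 to 0.0803. S100a8 lost it without germinal center replicate 3 (5.77, adjusted p = 0.108). Mmp9 lost its call without plasma replicate 2 (1.23, adjusted p = 0.0661). Of the 13 neutrophil markers with a probe set, 10 passed the filter, and 9 were called when all were tested. Of the 10 called with the filter, 8 were called without plasma replicate 2. Cxcr2 and Mmp8 were at or below the array median on all plasma arrays.

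Among monocyte and dendritic cell genes, Lyz2, a lysozyme, was at 13.34, 12.84 and 13.30 in plasma cells and 7.24, 3.87 and 3.16 in germinal center cells (8.40 ± 1.42). Cd14, the coreceptor for lipopolysaccharide, was at 9.10, 9.09 and 9.39 against the lowest value (at least 7.04 ± 0.60), and the adaptor chains Tyrobp and Fcer1g rose by 5.08 ± 0.99 and 4.79 ± 0.75. Tyrobp read 10.96, 11.34 and 10.92 in plasma arrays but 13.04, 12.59 and 13.02 in marginal zone B cells. Mpeg1 read 11.02, 10.60 and 10.69 against 12.76, 12.24 and 12.23 there. Cd14 and Fcer1g were higher in the plasma arrays than in every array of the other groups. With every gene of this list tested 9 of 17 were higher, and Flt3 and Ms4a6c were lower by 1.41 ± 0.43 and 2.27 ± 0.32. Itgam, Siglech, Xcr1, Clec4a2 and Fcgr1 were at or below the array median on all plasma arrays. Itgax was called higher by 1.78 ± 0.51 but not without plasma replicate 2 (0.86).

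Of the macrophage genes, C1qb, a complement subunit, was at 10.40, 10.55 and 10.50 in plasma cells and at 3.81, 2.68 and 2.98 in germinal center cells (7.33 ± 1.40), and Csf1r, the receptor for the macrophage growth factor, rose by at least 4.36 ± 0.90. With every gene tested 5 of 15 were higher. Among them, Cd68 read 10.42, 9.80 and 10.53 in plasma arrays but 10.60, 11.42 and 11.00 in day 7 memory cells. Spic read 4.65, 5.65 and 5.63 but 8.42, 7.55 and 7.98 in marginal zone cells. Adgre1, which encodes F4/80, was at 2.25, 2.53 and 2.17 in plasma cells, and Adgre1, Mertk, Marco, Vsig4, Cd5l, Timd4 and Axl, 7 of 15, were at or below the array median on all plasma arrays. Prg2, a major basic protein of eosinophil granules that is also known from some plasma cells, was at 12.36, 12.13 and 12.57 against 2.49, 3.12 and 3.84 (9.20 ± 0.39). Mcpt8, a basophil protease, rose by 5.65 ± 0.32, while the mast cell and basophil receptor genes Fcer1a and Ms4a2 were at or below the median on all plasma arrays.

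T cell markers summed to 129 to 216 in plasma arrays and 148 to 196 in germinal center arrays, and 7 of 13 were at or below the median on all plasma arrays. The similar sums were made of different genes. Lat, a T cell adaptor, made up 36.5% to 69.1% of the germinal center sums and was lower in plasma cells by at least 4.21 ± 0.57, and Cd4, Cd8a and Thy1 were higher by 2.98 ± 0.47, 1.44 ± 0.18 and 1.65 ± 0.35. NK cell markers summed to 947 to 1356 against 750 to 1133. Erythroid and platelet markers summed to 1771 to 7002 against 138 to 330. Car1, the carbonic anhydrase of red cells, at 10.01, 12.02 and 10.43, and Car2 made up most of the plasma sums. Car2 read 9.45, 11.45 and 10.20 in plasma arrays but also 8.52, 8.96 and 9.51 in follicular B cells. Of 11 markers with a probe set, 7, among them Hba-a1 and Alas2, were at or below the median on all plasma arrays. Stromal markers summed to 13180 to 13690 against 5301 to 6044, but Cr1l, a complement regulator with a high signal in both groups, made up 84.9% to 97.1% of these sums. Without it they were 1107 to 1991 against 152 to 370, and Pdgfra, Pdgfrb and Cdh5 were at or below the median on all plasma arrays. Pecam1 made up most of what remained in plasma replicates 1 and 3. It read 10.21, 8.92 and 10.02 in the plasma arrays but 10.89, 10.65 and 10.89 in follicular B cells. Col3a1, a fibrillar collagen, read 4.28, 9.79 and 5.06 in plasma cells, again highest in replicate 2, and its change was 2.35 without that array in place of 4.06.

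**Figure D5:**
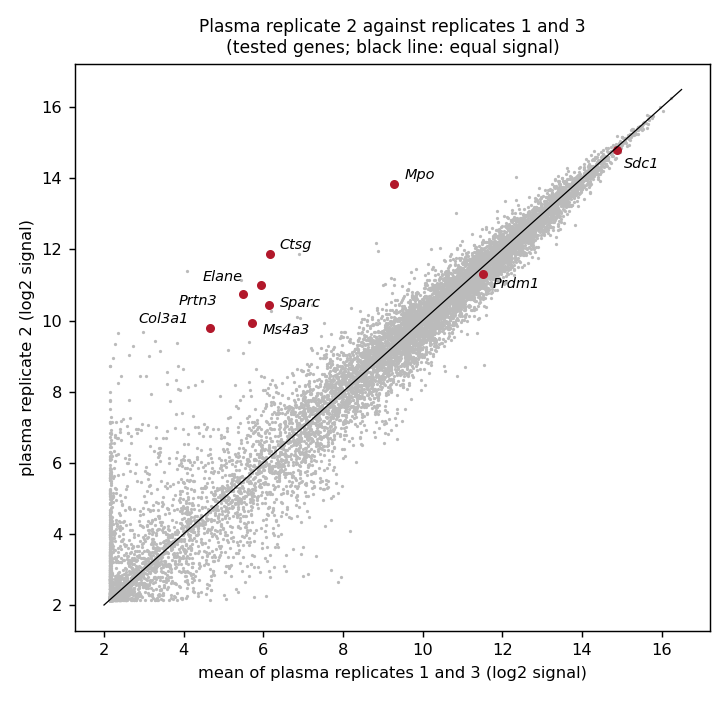
Log2 signal of the tested genes in plasma replicate 2 (vertical axis) against the mean of plasma replicates 1 and 3 (horizontal axis); the black line marks equal signal and red points are named genes. Mpo, Elane, Prtn3, Ctsg, Ms4a3, Col3a1 and Sparc lie far above the line, and Prdm1 and Sdc1 lie on it.

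Without plasma replicate 2, the same genes were called in the lists of plasma cell regulators (9), surface genes (16) and chaperones (28 higher) and in the germinal center program (15 lower). Of the 22 B cell identity genes called lower, 20 still were, with Cd79a (-0.98) and Cd37 (-0.98) just under the size for a call, and Fcrla was called higher (1.01). Of the 16 mitosis genes called lower, 14 still were. The stress sensor and degradation list lost Ppp1r15a (1.42, adjusted p = 0.103) and had 18 higher in place of 19, and the macrophage list gained Hmox1 (2.79 in place of 1.07) and had 6 in place of 5. Over all genes the calls were then 2088 higher and 2290 lower.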

How the data were processed

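Splenic B cell populations were measured on 24 arrays in 8 groups of 3. The authors deposited log2 values from GCRMA, per the submitters' processing notes, with no depth to report. No further normalization was applied. Of 45101 probe sets, 34945 (without controls) carry 1 gene symbol in the platform annotation, 932 several and 9160 none, and 34754 were updated through Entrez identifiers to RefSeq (GRCm38.p6). Each of 18193 genes was represented by its brightest probe set on average over the series. Genes were tested with limma 3.58.1 in R 4.3.3, a mean per group over 24 arrays and Benjamini-Hochberg adjustment over 11208 genes. Sums of markers are of linear values over genes with a probe set. The fit was tested on simulated data. Their noise was independent between arrays, so this does not cover an array that stands apart, such as plasma replicate 2. Figures were drawn with matplotlib 3.10.9 in Python 3.11.15.

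Gene lists, members and rules were chosen with earlier results of these data known. Genes were named as the 15 largest rises and falls with arrays that did not overlap, index genes, up to 6 called members a list with the largest change and up to 3 against its direction, sort markers, and called myeloid markers. Other genes were chosen after their values were seen. Among them were all those not called, except the index genes Myc, Mki67 and Jchain and the sort marker Ptprc. The scan or hybridization batch is not given in the sources used here. The planned list of proteins with an ER retention tail was not analysed here.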

Additional observations from a re-analysis of the deposited data

How the results depend on the processing

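The counts of called genes stayed within 1.5 times of 2027 higher and 2252 lower in every alternative run, except that dropping the minimum change gave 3499 lower genes (and 2850 higher). Shifting the arrays to 1 median moved the median change of all genes from -0.05 to -0.18 and gave 1840 higher and 2515 lower. With the filter at the 75th percentile, 7839 genes were tested and 1414 and 1832 were called. Leaving out 1 array gave 1921 to 2088 higher and 2028 to 2310 lower. Whether the replicate numbers pair the samples could not be settled. Correlations of deviations were 0.21, 0.33 and 0.07 for equal numbers and -0.30 to 0.16 for unequal ones. Plasma replicate 3 was closer to germinal center replicate 1, at 0.16. With the replicate block 2033 were higher and 2247 lower. Of 220 named genes that were called, 187 kept the call in every alternative in which they were tested. The sign reversed for Cd55 with the mean of its probe sets (-0.011) and for Iglv1 without probe sets ending in _x_at or _s_at (-0.28); the cause was not tested. Among mitosis genes 9 were lower without the filter and 25 with array weights, and of neutrophil markers 5 were tested and called at the stricter filter. Signals near the lowest value limit what can be said of low genes. Folds of such genes are bounds.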
